A study of Arabidopsis thaliana with 12 samples.

Results

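PSAN, PSBW, PSBY, PSB27 and LHCB1.5 are 5 nuclear genes for parts of the photosynthetic machinery of Arabidopsis thaliana. Each was measured by 1 probe that the platform annotation pairs with that gene alone. They are 5 of the 689 genes with such a probe, on an array of 3439 probes. The rule that picks the probes uses the annotation and no measured value, but the genes were proposed with earlier results of these data known. The study compared 6 samples of the psah2 mutant, which its submitters describe as having no photosystem I protein PSI-H2, with 6 wild-type (WT) samples, both of ecotype Columbia 0. Total RNA of each sample was put on 1 single-colour array. The sources used here give no mutant allele, tissue, age or growth condition, and they leave it unsaid whether the samples of one genotype are separate plants. The spread behind the p-values is that between the arrays and may be technical.

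Photosystem II uses light to split water, and photosystem I uses light to pass electrons from plastocyanin to ferredoxin. Light-harvesting proteins bind chlorophyll around both photosystems, and the LHCB1 proteins form the main mobile antenna. In state transitions this antenna moves from photosystem II to photosystem I, where PSI-H is needed for it to dock. PSAN encodes a lumenal photosystem I subunit next to the plastocyanin site. PSBW and PSBY encode small membrane proteins of photosystem II, PSB27 a lumenal protein of photosystem II assembly and repair, and LHCB1.5 (listed as LHB1B2 by RefSeq) an antenna protein.

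In psah2 the PSAN, PSBY and LHCB1.5 signals averaged 2.71, 2.92 and 2.87 times those of WT in the deposited intensities. Their ratios to each other in psah2 were 0.934 to 1.01 times those in WT as deposited, although after normalization PSBY rose more than LHCB1.5. PSBW averaged 0.890 times its WT intensity as deposited and was lower in psah2 after normalization. PSB27 differed more between replicate numbers than between genotypes. After normalization PSAN, PSBY and LHCB1.5 rose in psah2 in the test across all probes, PSBW fell, and PSB27 did not pass. Of all 2643 tested probes, 25.2% were called higher and 36.2% lower. Thus 3 higher and 1 lower of 5 is to be read against a background in which 61.5% of probes were called. The PSBW call depended on the scaling. As deposited PSBW was not called, and with median-centred arrays all 5 genes were called higher.

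The arrays of the groups differed in overall brightness, which touches every direction given here. The median deposited intensity of an array was 0.0904 to 0.0995 in psah2 and 0.304 to 0.379 in WT, on a scale that ends at 100. Between 20.1% and 22.5% of probes were listed at 0 on psah2 arrays, against 13.03% to 13.7% on WT arrays. At the top of the scale were 5 probes on every psah2 array and 0 to 2 on WT arrays. How far this touches the normalized values of bright probes such as PSBW and LHCB1.5 was not tested. Fold changes below are on the log2 scale after quantile normalization, which gives all arrays the same distribution, and intensities are the deposited ones. The median log2 change of all tested probes was -0.26 after normalization and -1.64 as deposited. Changes under other scalings are given beside the normalized ones. No probe for PSAH2 itself was paired with that gene in the annotation used here, and of 7 green-tissue, 3 root and 4 seed markers none had a probe of its own, so neither genotype nor tissue was checked by expression. In bulk RNA, fewer cells of a type and less RNA per cell cannot be told apart.

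PSAN (AT5G64040), the photosystem I member, had intensities of 12.2, 12.7, 11.1, 11.9, 10.2 and 12.3 on the 6 psah2 arrays, against 4.08, 4.501, 4.93, 5.25, 3.34 and 3.91 on the 6 WT arrays. Every psah2 array was above every WT array. Such separation upward was seen for 7.72% of tested probes in the deposited intensities. PSAN stood at rank 37 to 44 from the brightest probe on psah2 arrays and at rank 76 to 107 on WT arrays. After normalization PSAN rose 2.25-fold in psah2 (log2 change 1.17, SE 0.12, adjusted p = 4.00e-06 by limma with Benjamini-Hochberg adjustment, n = 6 each). Its spread was small in the mutant, with a coefficient of variation of 7.85% in psah2 and 16.1% in WT.

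PSBW (AT2G30570), a small subunit known to stabilise the supercomplexes of photosystem II with its antenna, was among the brightest probes of the array. Its intensities were 36.1, 41.1, 42.3, 42.6, 37.1 and 42.9 in psah2 and 44.1, 47.5, 45.7, 45.3, 43.8 and 45.8 in WT. All 6 psah2 values lay below all 6 WT values, with means of 40.4 ± 3.0 in psah2 and 45.4 ± 1.3 in WT (SD, n = 6 each). Groups separated downward in this way for 66.4% of all tested probes as deposited. PSBW held ranks 12 to 19 in psah2 and 10 to 12 in WT. After normalization it fell 1.66-fold in psah2 (log2 change -0.73, SE 0.15, limma, adjusted p = 0.00128). As deposited the log2 change was -0.17 and did not pass (limma, adjusted p = 0.0918), and with arrays centred on their medians it turned to 1.25 (limma, adjusted p = 2.63e-07).

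PSBY (AT1G67740), a photosystem II gene whose product is cut into a pair of short membrane proteins, had intensities of 8.16, 6.28, 6.36, 6.10, 5.11 and 5.73 in psah2 and 2.73, 2.51, 2.05, 2.01, 1.84 and 1.79 in WT. The groups did not overlap. Its rank was 55 to 73 in psah2 and 151 to 204 in WT. PSBY rose 2.80-fold in psah2 after normalization, the largest change of the 5 genes on that scale (log2 change 1.49, SE 0.11, limma, adjusted p = 2.20e-07). The 2 photosystem II subunit genes with a probe of their own thus went in opposite directions after normalization, PSBY upward and PSBW downward.

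LHCB1.5 (AT2G34420), the antenna member, had intensities of 39.3, 44.2, 33.1, 34.0, 28.3 and 30.8 in psah2 and 15.6, 14.5, 11.3, 13.6, 8.73 and 9.48 in WT. The groups did not overlap. LHCB1.5 held ranks 15 to 17 in psah2 and 23 to 36 in WT. It rose 1.80-fold in psah2 after normalization (log2 change 0.85, SE 0.13, limma, adjusted p = 0.000142). Its change was larger as deposited, at a log2 change of 1.54. LHCB1 genes are close copies of each other, and how far this probe binds transcripts of the others was not tested.

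PSB27 (AT1G03600) was the dimmest member on 10 of the 12 arrays. It held ranks 123 to 351 in psah2 and 154 to 934 in WT. Its intensities were 2.81, 0.789, 2.33, 2.81, 1.38 and 0.775 in psah2 and 2.56, 0.703, 2.26, 2.41, 1.56 and 0.701 in WT, in order of replicate number. The groups overlapped, and replicates 2 and 6 were the lowest of both groups. Within a group the highest array was 3.63 times the lowest in psah2 and 3.65 times in WT. Between arrays of the same number, psah2 over WT ran only from 0.883 to 1.17. After normalization the log2 change was 0.43 with an SE of 0.50 (limma, adjusted p = 0.462). It passed at 1.52 once arrays were centred on their medians (limma, adjusted p = 0.0144).

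**Figure D1:**
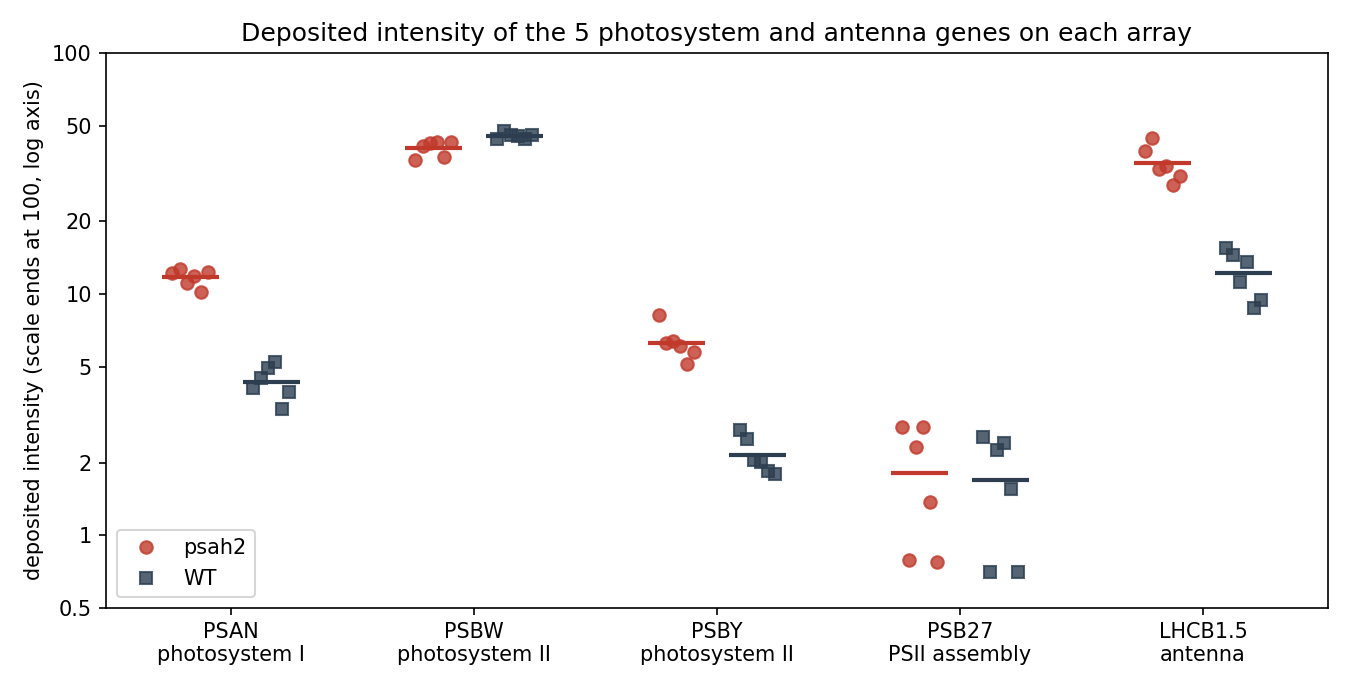
Deposited intensity (log axis, scale ends at 100) of each gene on each array, psah2 as circles and WT as squares, with a bar at the mean of the 6 arrays. PSAN, PSBY and LHCB1.5 are separated between the groups, PSBW lies near 40.4 in psah2 and 45.4 in WT, and PSB27 overlaps.

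**Figure D2:**
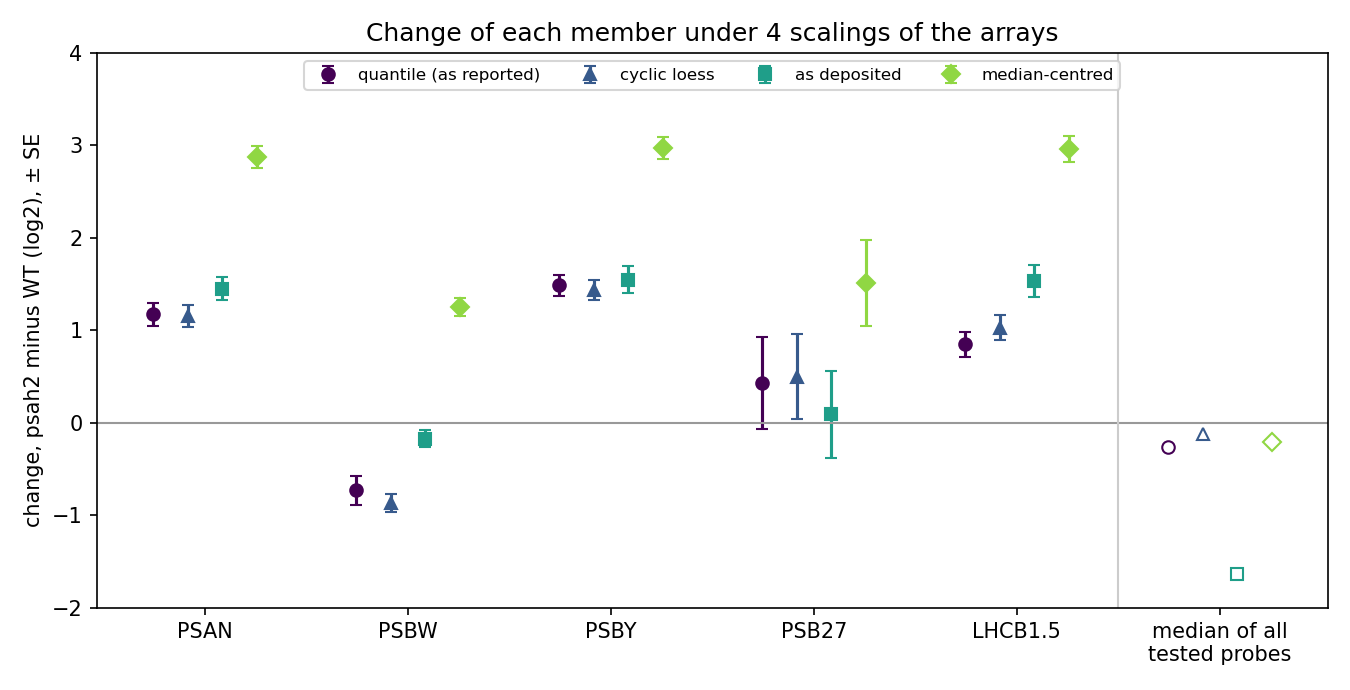
Log2 change in psah2 relative to WT of each gene, with its SE, under 4 ways of scaling the arrays, and at the right the median change of all tested probes. PSAN, PSBY and LHCB1.5 lie above 0 under all 4, while PSBW changes sign with median-centred arrays.

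The plot of the changes under 4 scalings shows how far each direction depends on the scaling. PSAN ran from a log2 change of 1.16 with cyclic loess to 2.88 with median-centred arrays. PSBY ran from 1.43 to 2.97 and LHCB1.5 from 0.85 to 2.96, and each of the 3 passed the test under all 4 scalings. As deposited 3 of the 5 genes were called higher in psah2, against 9.5% of all tested probes. With median-centred arrays all 5 were called higher, against 27.7% of all tested probes. Relative to the deposited values, median centring divides each array by the median of its values above 0, which is lower in psah2. It so raises every psah2 value against WT. The array medians given above include the probes at 0 and are not the ones used here. Relative to the quantile-normalized fit it left the median change of all tested probes nearly in place, at -0.21 against -0.26.

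The order of the probe signals was nearly the same on all arrays, which compares probes and not transcript amounts, since probes differ in length and binding. On all 6 WT arrays PSBW was brightest, then LHCB1.5, then PSAN. On psah2 replicates 1 and 2 LHCB1.5 was above PSBW, and on the other 4 PSBW was above LHCB1.5. PSAN came next on all 12 arrays, and PSBY was above PSB27 on all arrays but WT replicates 3 and 4. PSBW and LHCB1.5 in psah2, at 40.4 ± 3.0 and 34.9 ± 5.9, and PSBY and PSB27 in WT, at 2.15 ± 0.38 and 1.70 ± 0.84 (SD, n = 6 each), were thus neighbours whose ranges overlapped.

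Ratios between members were taken within each array, where any factor that scales a whole array drops out. A difference between arrays that varies with the brightness of a probe does not drop out. From deposited to normalized values the log2 change went from 1.54 to 0.85 for LHCB1.5 and from 1.55 to 1.49 for PSBY. For the dim LPA19 probe, described below, it went from -0.91 to 0.82. The 10 ratios of the 5 genes were compared between psah2 and WT on deposited intensities with a 2-sided exact permutation test. The smallest p it can give with 6 against 6 arrays is 0.00216, and p-values were adjusted over the 10 ratios.

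Between photosystem I, photosystem II and antenna, none of the 3 ratios among PSAN, PSBY and LHCB1.5 passed the test. The PSAN to PSBY ratio was 1.49, 2.03, 1.74, 1.94, 2.002 and 2.15 in psah2 and 1.49, 1.79, 2.40, 2.61, 1.82 and 2.19 in WT. The groups overlapped, and the ratio in psah2 was 0.934 times that in WT, with a 95% interval of 0.746 to 1.18 (exact permutation p = 0.498, adjusted p = 0.649). The PSAN to LHCB1.5 ratio had geometric means of 0.339 in psah2 and 0.360 in WT, a change of 0.941 times with an interval of 0.770 to 1.16 (exact permutation p = 0.519, adjusted p = 0.649). The PSBY to LHCB1.5 ratio was 0.180 in psah2 and 0.179 in WT, a change of 1.01 times with an interval of 0.861 to 1.17 (exact permutation p = 0.890, adjusted p = 0.890). The intervals bound the change and do not show that the ratios were equal. After quantile normalization the PSBY to LHCB1.5 ratio had a log2 change of 0.64 and passed (exact permutation, adjusted p = 0.00541), and that of PSAN to LHCB1.5 turned to 0.32 (adjusted p = 0.0928).

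Relative to PSBW, the same 3 genes were 3.08-fold to 3.29-fold higher in psah2. The PSAN to PSBW ratio, of photosystem I over photosystem II, was 0.338, 0.310, 0.262, 0.279, 0.275 and 0.287 in psah2 and 0.0925, 0.0948, 0.108, 0.116, 0.0762 and 0.0855 in WT. No psah2 array came near a WT array. This was a 3.08-fold higher ratio in psah2, with a 95% interval of 2.61 to 3.63 (higher in 6 of 6 numbers, exact permutation p = 0.00216, adjusted p = 0.00722). Within photosystem II, the PSBY to PSBW ratio was 3.29-fold higher in psah2, with an interval of 2.65 to 4.17, at geometric means of 0.155 in psah2 and 0.0469 in WT (exact permutation p = 0.00216, adjusted p = 0.00722). The PSBW to LHCB1.5 ratio was 0.919 to 1.39 in psah2 and 2.83 to 5.02 in WT, lower in psah2 in 6 of 6 numbers, at 0.306 times the WT ratio with an interval of 0.230 to 0.408 (exact permutation p = 0.00216, adjusted p = 0.00722). These 3 ratios kept their direction after quantile normalization, with log2 changes of 1.90, 2.22 and -1.58 (exact permutation, adjusted p = 0.00541 each).

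Ratios to PSB27 carried its spread between replicate numbers. PSAN to PSB27 was 4.22 to 16.1 in psah2 and 1.59 to 6.41 in WT, so the groups overlapped although psah2 was higher in 6 of 6 numbers. The ratio was 2.57-fold higher in psah2, with a 95% interval of 1.203 to 5.83 (exact permutation p = 0.0281, adjusted p = 0.0469). PSBY to PSB27 was 2.75-fold higher, with an interval of 1.31 to 5.76 (exact permutation p = 0.0195, adjusted p = 0.0433). PSB27 to LHCB1.5 was 0.367 times that of WT, with an interval of 0.171 to 0.819 (exact permutation p = 0.0216, adjusted p = 0.0433). All 3 calls were lost without psah2 replicate 2, 5 or 6 and without WT replicate 1, 3, 4 or 5 (exact permutation, adjusted p from 0.0541 to 0.101), and after quantile normalization (adjusted p from 0.1001 to 0.446). PSB27 to PSBW was higher in psah2 in 6 of 6 numbers, but it had an interval of 0.517 to 2.65 times the WT ratio and did not pass (exact permutation p = 0.604, adjusted p = 0.671).

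**Figure D3:**
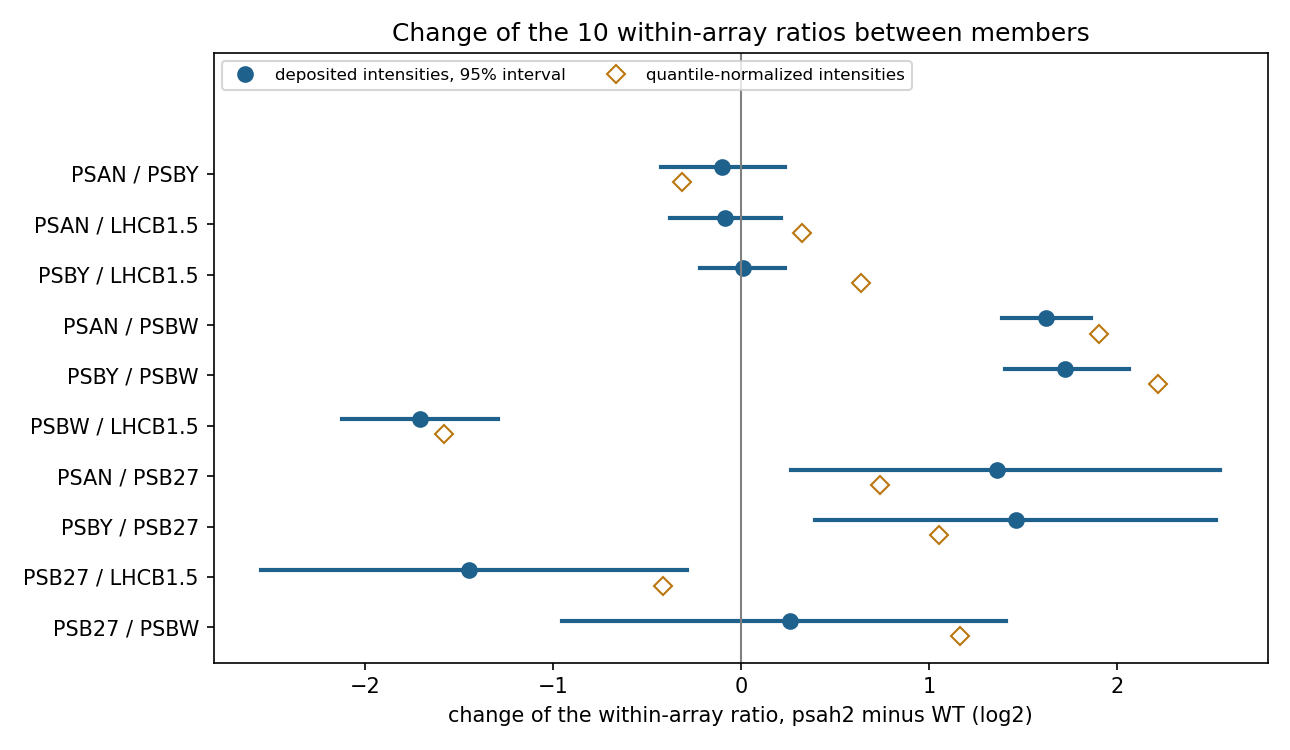
Change of each within-array ratio in psah2 relative to WT, on the log2 scale, as filled circles with 95% intervals from the exact permutation test on deposited intensities, and as open diamonds after quantile normalization. The 3 ratios among PSAN, PSBY and LHCB1.5 lie near 0 as deposited, the ratios of these genes with PSBW lie 1.62 to 1.72 away from it, and PSB27 to PSBW lies at 0.26.

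The members also differed in how their arrays varied within a group. In the plot of deviations by replicate number, psah2 and WT arrays of the same number lie close together for PSB27, PSBY and LHCB1.5. The replicate number accounted for 99.3% of the within-group variance of log2 PSB27 intensity. This was more than for 99.8% of the 2133 probes with values above 0 on all arrays, whose median share was 54.3%. For PSBY the share was 92.4%, for LHCB1.5 91.8%, for PSBW 73.8% and for PSAN 65.5%. A number holds only a psah2 and a WT array, so even arrays that vary independently give a large share, not far below 54.3%. The share was taken on deposited log2 values, so brightness common to the arrays of a number is included. Consecutive replicate numbers, such as 1 and 2, were closer than other arrays of their group for LHCB1.5, at a mean log2 difference of 0.14 against 0.41, and for PSBY, at 0.13 against 0.31. PSAN also had closer consecutive arrays, at 0.15 against 0.23. For PSB27 the values were 1.01 and 1.03, and for PSBW consecutive arrays were slightly farther apart, at 0.098 against 0.085. With the replicate number as a block in the fit, the SE of the PSB27 change was 0.19, against 0.50 without it. The labels give no batch, membrane or hybridization for a replicate number, and what it stands for was not tested.

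**Figure D4:**
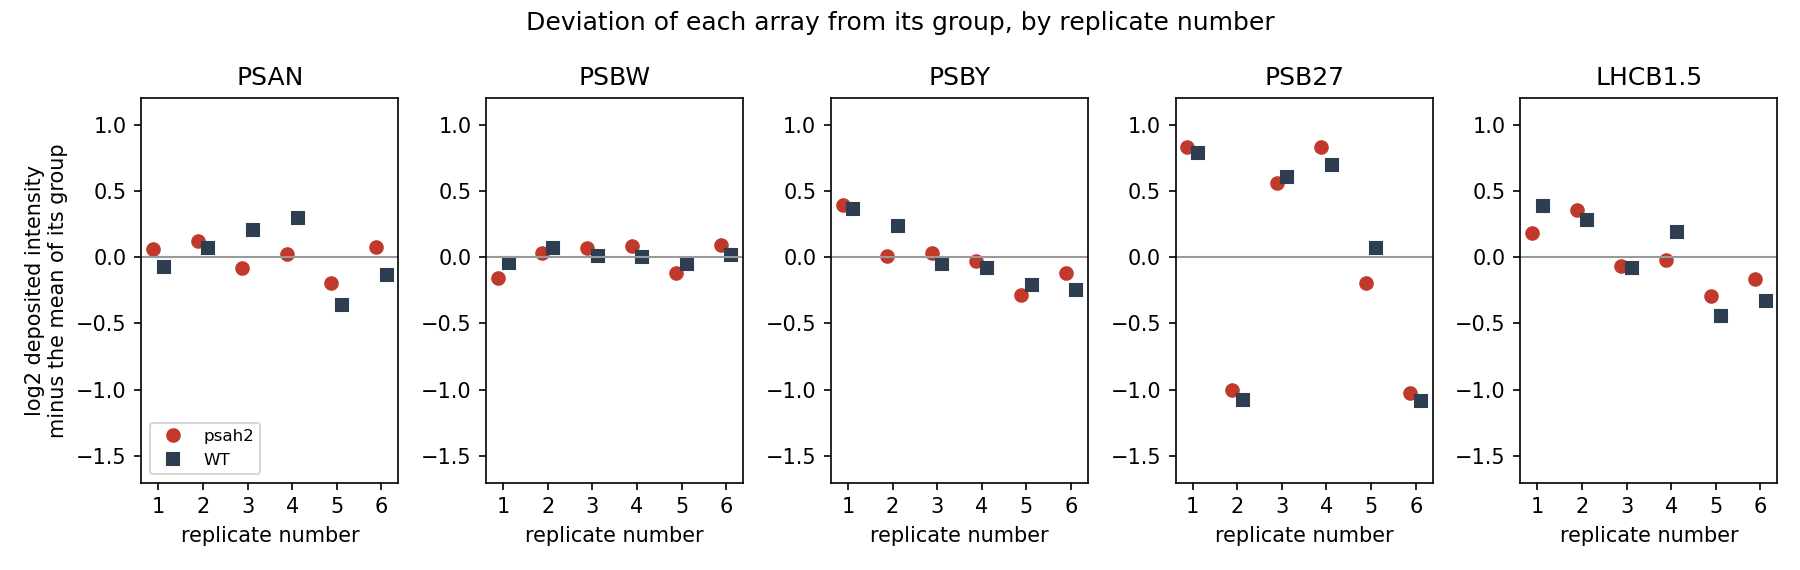
Log2 deposited intensity of each array minus the mean of its group, against the replicate number, psah2 as circles and WT as squares. For PSB27 the arrays numbered 2 and 6 lie about 1 log2 unit below the mean in both groups.

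Of 85 nuclear genes listed for photosystems, antennae, assembly factors, electron carriers, ATP synthase and thylakoid proteins, 7 had a probe of their own, and all 7 were tested. Besides the 5 members these were a pair of assembly genes, LPA19 and PYG7. Of the 7, 4 rose, 1 fell and 2 did not pass after normalization, against 25.2% higher and 36.2% lower of all tested probes. As deposited 3 were called higher and 2 lower, against 251 higher and 2049 lower of all 2643 tested probes. With median-centred arrays 6 were called higher and none lower, against 731 higher and 824 lower of all 2643 tested probes. LPA19 (AT1G05385), a relative of PSB27 that acts in maturation of the photosystem II core protein D1, had an intensity of 0.109 ± 0.013 in psah2 and 0.205 ± 0.025 in WT (SD, n = 6 each). It rose 1.77-fold after normalization (log2 change 0.82, SE 0.16, limma, adjusted p = 0.000595), whereas as deposited it was called in the opposite direction, at a log2 change of -0.91 (limma, adjusted p = 1.99e-05). PYG7 (AT1G22700), needed for photosystem I to accumulate, was at 0.250 ± 0.093 in psah2 and 0.534 ± 0.149 in WT (SD, n = 6 each). Its log2 change was 0.10 with an SE of 0.24 after normalization (limma, adjusted p = 0.716) and -1.14 as deposited (limma, adjusted p = 0.00219). A further 9 listed genes were named only on probes shared with other genes and are not described.

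Likeness of pattern was measured as the root mean square difference between the normalized log2 values of 2 probes over the 12 arrays, each centred on its own mean, against 415 other genes with a probe of their own and values on all arrays. Closest to PSAN were AT4G10120, a sucrose-phosphate synthase gene, at 0.159 and AT1G32730 at 0.160, against a median of 0.898 over the 415 genes. AT4G10120 was also close to LHCB1.5, at 0.200, after AT5G11010 at 0.197. The genes named as closest to PSAN and LHCB1.5 were higher in psah2 as deposited too. PSBY was closest to ILA (AT1G64790) at 0.158 and AT1G15140 at 0.187, against a median of 1.02. As deposited ILA averaged 0.400 in psah2 and 0.355 in WT, and AT1G15140 0.336 and 0.344, unlike the rise of PSBY. PSBW was closest to AT5G38310 at 0.194 and AT1G74070 at 0.208, against a median of 0.631. As deposited these averaged 0.897 and 0.229 in psah2 and 2.13 and 0.818 in WT, a larger fall than that of PSBW. For PSB27 the smallest differences were larger, with PYG7 at 0.637 and AT4G23080 at 0.759, against a median of 1.08. Among the members, PSAN and PSBY differed by 0.282, PSAN and LHCB1.5 by 0.288 and PSBY and LHCB1.5 by 0.351, while PSBW differed from each of these by 0.864 to 1.15.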

How the data were processed

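The values the authors deposited are linear intensities, 1 for each of 3439 probes on each array, on a scale that ends at 100 and holds no value below 0. Their background correction, scaling and scanner are not given in the sources used here. All 12 columns were used, with groups and replicate numbers from the sample titles. Array medians and sums differed by over 5%, so log2 intensities were quantile-normalized between arrays, with a value of 0 treated as missing. Probes with at least 4 values in each group were tested with limma 3.58.1 (lmFit, eBayes) under R 4.3.3, 2-sided, without a covariate, with Benjamini-Hochberg adjustment over all tested probes at 0.05. The fit was tested on simulated data.

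The annotation gave 1 gene for 692 probes, several for 870 and none for 1877, and 690 of the 692 matched a locus of the RefSeq table of assembly TAIR10.1. Probe sequences and coordinates were not used here. Within-array ratios came from deposited intensities, with exact permutation tests in Python 3.11.15, and 95% intervals by inverting that test. Named genes were the 5 members, the tested genes of a pathway list, and for each member the 2 genes most alike in pattern. The members and lists were chosen with earlier results of these data known. Alternatives were other scalings, a floor for values at 0, a stricter filter, another prior, the replicate number as a block, averaged consecutive replicates, and each array left out. The number of arrays limits the precision.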

Additional observations from a re-analysis of the deposited data

Results flagged for a closer look

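In 30 groups of 6 values, made of the normalized log2 intensities of the 5 genes and their 10 ratios in each genotype, 3 held an array apart from the other 5 by a gap test that chance passes in about 1 of 20 groups. PSAN was highest in psah2 replicate 6, at a normalized log2 intensity of 3.51 against 3.19 to 3.31 on the other psah2 arrays, while its deposited intensity there, 12.3, lay within their range. PSBY was highest in psah2 replicate 1, at 2.83 against 2.39 to 2.54, and its deposited intensity of 8.16 was also the highest. The PSBY to PSBW ratio was highest on the same array, at 0.226 against 0.134 to 0.153 on the other psah2 arrays. Without psah2 replicate 1 the log2 change of this ratio was 1.61 (exact permutation, adjusted p = 0.00722).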

How the results depend on the processing

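Over all probes, 667 were higher and 958 lower in psah2. As deposited the counts were 251 and 2049, and under every other setting both stayed within 1.5 times. The log2 changes of PSAN, PSBY and LHCB1.5 kept direction and call under all settings. PSBW was -0.17 as deposited, without a call, and 1.25 with median-centred arrays, where PSB27 was called at 1.52. Quantile-normalized ratios lost the calls of PSAN to PSB27 (0.74), PSB27 to LHCB1.5 (-0.42) and PSBY to PSB27 (1.05), called PSBY to LHCB1.5 (0.64) and turned PSAN to LHCB1.5 (0.32). Averaging consecutive replicates left 3 against 3, where the smallest possible exact permutation p is 0.1, so no ratio could pass. The log2 changes were as before, at 1.62 for PSAN to PSBW, 1.36 for PSAN to PSB27, -1.71 for PSBW to LHCB1.5, -1.45 for PSB27 to LHCB1.5, 1.72 for PSBY to PSBW and 1.46 for PSBY to PSB27.

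Leaving out 1 array gave 1.14 to 1.59 for PSAN to PSB27, -1.72 to -1.18 for PSB27 to LHCB1.5, 1.26 to 1.72 for PSBY to PSB27 and -0.042 to 0.081 for PSBY to LHCB1.5, whose sign turned without psah2 replicate 1 or 3 or WT replicate 4. The causes of these changes were not tested.

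Same-numbered psah2 and WT arrays had correlations of their deviations from the group means of 0.06 to 0.17, above 0.1 for 4 of 6 numbers, and each of the 12 was closest to the array of its own number in the other genotype. This is a hint from the data, and the labels state no pairing. The fit with a replicate block called 654 probes higher and 938 lower, PSAN, PSBW, PSBY and LHCB1.5 kept their calls, and PSB27 had an adjusted p of 0.0866 (limma). A random block, chosen after the data were seen, called 687 higher and 996 lower and changed no call of the 5 genes. In the paired ratios the only changed call was that of PSB27 to PSBW, at 0.26 (exact sign-flip permutation, adjusted p = 0.0446, higher in psah2 in 6 of 6 numbers). The sign-flip permutation gives its smallest possible p, 0.03125, whenever all 6 numbers go the same way, whatever the size of the change. Values near 0 limit dim probes. Every member was above the array median on every array, with PSB27 the lowest, at 1.86 times the median on WT replicate 2.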
